A study of Arabidopsis thaliana with 10 samples.

Results

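The genes described here are the Aux/IAA and ARF auxin response regulators of Arabidopsis thaliana, 44 genes of the 33297 rows in an RNA-seq table of seedlings. They were taken by locus code and comprise 29 Aux/IAA genes, IAA1 to IAA20 and IAA26 to IAA34, and 15 ARF genes, ARF1 to ARF11 and ARF16 to ARF19. All 44 had a row, and 37 passed the filter on low values, which asks that 2 or more of the 5 genotype columns reach 1 FPKM (fragments mapped to a transcript, per kilobase of its length and relative to all mapped fragments). That filter kept 22 of the 29 Aux/IAA genes and 15 of the 15 ARF genes, against 18912 of all rows.

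The study profiled mRNA of whole seedlings, 7 days old, of 4 mutants and their wild type. The mutants were hda9 (T-DNA line SALK_007123), which carries an insertion in a histone deacetylase gene, hos15 (hos15-2, SALK_064435), with an insertion in a gene for a WD40-repeat protein, pwr (SALK_071811C), with an insertion in a gene for a SANT-domain protein, and the double mutant hda9 hos15, which joins the hda9 and hos15-2 insertions. The wild type was Columbia-0 (Col). Plants were raised at 23 °C on agar plates (0.8%) of half-strength MS salts under days of 16 h light and 8 h dark, and were collected at ZT 12, that is 12 h after lights on, and the labels name 2 libraries for each genotype, 10 in all. Each mutated gene was represented by 1 insertion allele.

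Only 1 FPKM value per gene and genotype was available, made by the authors, so no spread between libraries can be given, no difference was tested, and the depth behind each value is unknown. Levels are given as FPKM, and differences as log2 fold changes of FPKM + 1, mutant over Col, a scale that understates changes at low levels. Calls, higher or lower, need a difference of 1 or more on this scale, that is 2-fold. Sequence-adjusted differences are the same values after removal of the part that, over all kept protein-coding genes, goes with purine (A and G) share, length and GC content of the transcript. In whole seedlings, fewer cells of a type and less RNA per cell cannot be told apart.

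Aux/IAA proteins are short-lived repressors of the auxin response. They bind ARF proteins, which are DNA-binding transcription factors that recognise the auxin response element, and they recruit TOPLESS corepressors. Auxin joins an Aux/IAA protein to its co-receptor, an F-box protein of the TIR1/AFB group, and the Aux/IAA protein is then ubiquitinated and degraded, which frees the ARF. Many Aux/IAA genes are themselves induced by auxin through ARFs, so that the pathway feeds back on itself, and several ARF transcripts are cleaved through small RNAs.

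The part of an Aux/IAA protein that binds the co-receptor is the degron, whose core is a Gly-Trp-Pro-Pro motif. Codons for this core were found in 23 of the 29 Aux/IAA genes and were not found in the other 6, IAA20, IAA30, IAA31, IAA32, IAA33 and IAA34. The stretches around the core are shown for IAA1, IAA2 and IAA4, the Aux/IAA genes with the largest differences, and for IAA3, the closest relative of IAA4, in coding sense, with the codons of the core in capitals. Coordinates of sequences are those of the TAIR10.1 assembly, whose sequence was used with its RefSeq annotation.
IAA1: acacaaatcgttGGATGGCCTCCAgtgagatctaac
IAA2: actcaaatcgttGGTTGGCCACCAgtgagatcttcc
IAA3 and IAA4: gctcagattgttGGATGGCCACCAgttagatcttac
IAA3 and IAA4 were identical over this stretch. Over the whole coding sequence IAA1 and IAA2 matched at 84.5% of their aligned bases, and IAA3 and IAA4 at 83.3%.

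The 250 bases before the annotated transcript start are shown for the 4 genes called in at least 1 mutant, because the auxin response element lies in such regions. Both strands were searched for TGTCTC, the element as first described, and for TGTCGG, a variant that ARF proteins bind strongly, and matches are in capitals. The windows lie at chr4:8360746-8360995 on the plus strand (IAA1), chr3:8182096-8182345 on the minus strand (IAA2), chr5:17549929-17550178 on the plus strand (IAA4) and chr1:6633134-6633383 on the minus strand (ARF19), each read towards its gene.
IAA1: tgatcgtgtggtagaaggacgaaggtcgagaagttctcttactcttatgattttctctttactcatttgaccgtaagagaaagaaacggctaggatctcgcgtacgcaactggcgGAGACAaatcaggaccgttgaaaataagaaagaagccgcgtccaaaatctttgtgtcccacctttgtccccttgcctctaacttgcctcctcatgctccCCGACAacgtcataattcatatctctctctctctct
IAA2: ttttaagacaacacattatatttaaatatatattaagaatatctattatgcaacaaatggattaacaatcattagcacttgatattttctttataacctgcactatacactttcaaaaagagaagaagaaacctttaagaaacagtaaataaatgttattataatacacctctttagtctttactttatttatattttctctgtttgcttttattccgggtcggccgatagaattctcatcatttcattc
IAA4: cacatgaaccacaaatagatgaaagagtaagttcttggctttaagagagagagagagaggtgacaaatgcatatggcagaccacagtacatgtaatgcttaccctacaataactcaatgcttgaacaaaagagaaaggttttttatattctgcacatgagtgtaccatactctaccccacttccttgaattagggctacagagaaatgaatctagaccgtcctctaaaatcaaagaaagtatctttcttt
ARF19: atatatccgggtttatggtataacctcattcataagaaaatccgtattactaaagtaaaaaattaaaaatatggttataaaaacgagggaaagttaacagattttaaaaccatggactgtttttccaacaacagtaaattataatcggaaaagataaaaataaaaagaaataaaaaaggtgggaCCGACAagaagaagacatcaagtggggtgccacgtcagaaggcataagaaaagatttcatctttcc
IAA1 held both motifs on the opposite strand, GAGACA for TGTCTC and CCGACA for TGTCGG, and ARF19 held CCGACA. Neither motif was in these windows of IAA2 and IAA4. Of 27443 protein-coding genes, 10.9% held TGTCTC in this window, as did 9 of the 29 Aux/IAA genes (31.0%) and 1 of the 15 ARF genes (6.67%). The shares for TGTCGG were 4.16% of all genes, 20.7% of the Aux/IAA genes and 13.3% of the ARF genes. In 1000 bases upstream TGTCTC was found in 58.6% of the Aux/IAA genes, in 6 of the 15 ARF genes and in 39.6% of all genes, and IAA1, IAA2, IAA4 and ARF19 were among those that held it. A match describes the letters of the window and not a bound site.

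ARF transcripts are targets of small RNAs. The miRNAs are shown with bases 2 to 8, the seed, in capitals. The TAS3 stretch is the 21 bases of the TAS3 transcript (chr3:5862205-5862225, plus strand) that best matched ARF2, ARF3 and ARF4, with the same bases in capitals.
miR160: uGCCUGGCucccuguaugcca
miR167a and miR167b: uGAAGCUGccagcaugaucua
TAS3 stretch: uUUCUUGAccuuguaagaccc
The best-matching site in each listed ARF transcript is shown 5′ to 3′ with mismatches to the small RNA in capitals, G-U pairs included. Further sites in a transcript were not looked for. All lie in coding sequence.
ARF10 (chr2:12115741-12115761, plus strand): AggAauacagggagccaggca
ARF16 (chr4:14704141-14704161, minus strand): GggUUuacagggagccaggca
ARF17 (chr1:29274189-29274209, plus strand): uggcauGcagggagccaggca
ARF6 (chr1:10686478-10686498, minus strand): GagaucaGgcuggcagcuuGU
ARF8 (chr5:14633841-14633861, plus strand): uagaucaGgcuggcagcuuGU
ARF2 (chr5:24913262-24913282, plus strand): gggucuuGcaaggucaagaaU
ARF3 (chr2:14325941-14325961, minus strand) and ARF4 (chr5:24309507-24309527, minus strand): gggucuuGcaaggucaagaaa
ARF10, ARF16 and ARF17 share the miR160 site with 2, 3 and 1 mismatches. ARF6 and ARF8 share the miR167 site with 4 and 3 mismatches. ARF2 had 2 mismatches to the TAS3 stretch, and ARF3 and ARF4 had 1 each and carry the same site.

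The Aux/IAA genes covered a far wider range of levels than the ARF genes. Summed over all 29 genes, the Aux/IAA class held 922 FPKM in hda9, 957 in hos15, 891 FPKM in pwr and 945 in hda9 hos15, against 912 in Col. The 15 ARF genes summed to 201 FPKM in hda9, 213 in hos15, 205 FPKM in pwr and 207 in hda9 hos15, against 220 in Col. The FPKM of all rows summed to 1153300 for hda9, 1142810 for hos15, 1326090 for pwr and 1177220 for hda9 hos15, against 955700 for Col. As a share of these totals the Aux/IAA class made up 0.0799%, 0.0837%, 0.0672% and 0.0803% in the same mutant order, against 0.0954% in Col, and the ARF class 0.0174%, 0.0187%, 0.0154% and 0.0176%, against 0.0230% in Col. The summed FPKM of the Aux/IAA class thus lay near that of Col in each mutant, while the shares of both classes were below Col in each mutant and lowest in pwr. The totals of all rows were above Col in each mutant and highest in pwr, so a steady sum also gives a lower share.

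**Figure D1:**
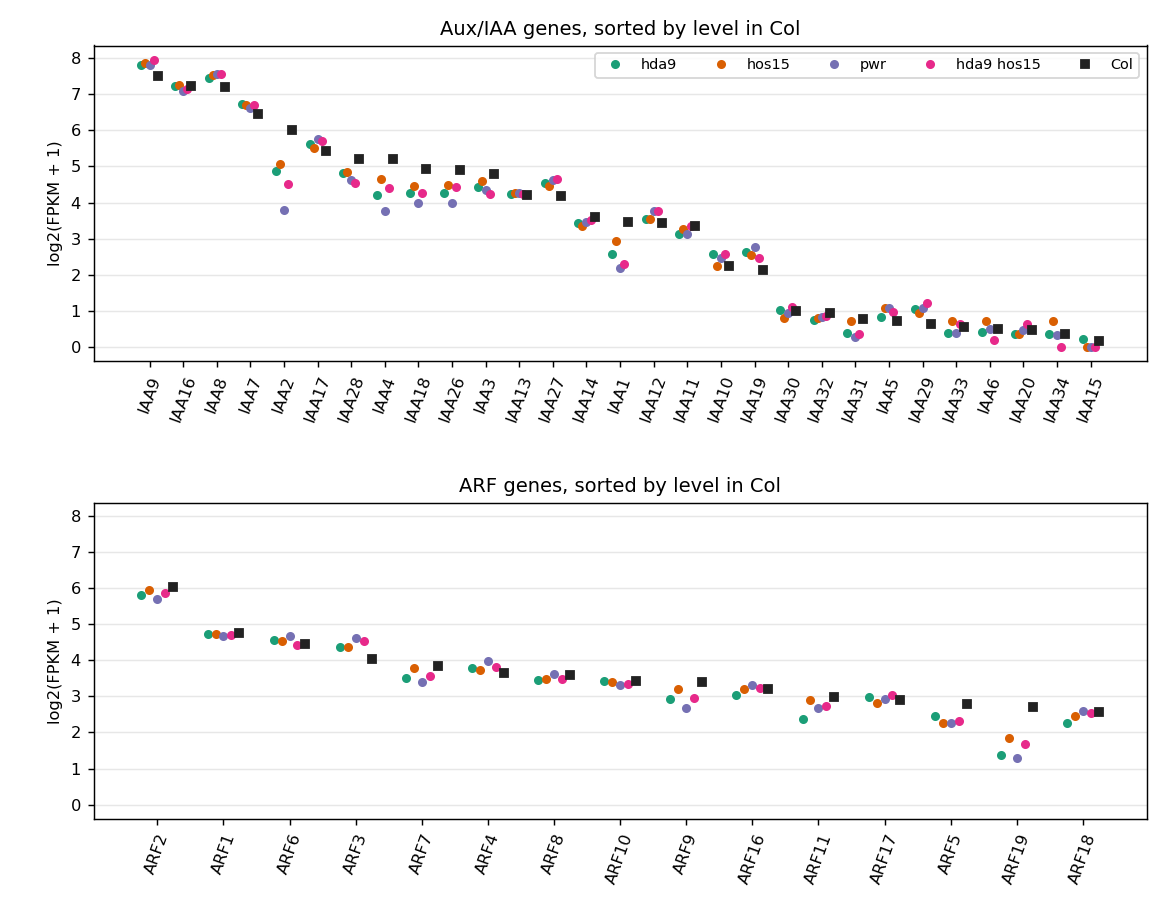
Levels of the 29 Aux/IAA genes (upper panel) and 15 ARF genes (lower panel) as log2(FPKM + 1), sorted by the level in Col, with 1 point per genotype column and Col as black squares. Most genes hold their level across the 5 columns. The 4 mutant points of IAA2, IAA4, IAA1 and ARF19 sit below Col, as do those of other genes. Of the 37 kept genes, 16 were highest in Col.

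IAA9 (AT5G65670) was the most abundant Aux/IAA transcript in every column. It stood at 226 FPKM in hda9, 232 in hos15, 225 FPKM in pwr and 247 in hda9 hos15, against 181 in Col, with log2 fold changes of 0.31 to 0.45. All 4 mutant columns lay above Col, and none passed 2-fold. IAA8 (AT2G22670), which is a close relative of IAA9, stood at 175, 186, 189 and 189 FPKM in hda9, hos15, pwr and hda9 hos15, against 145 in Col. IAA16 (AT3G04730), the remaining Aux/IAA transcript above 100 FPKM in Col, had 149, 151, 137 and 141 FPKM in the same mutant order, against 149 in Col. The levels of IAA9, IAA8 and IAA16 make up most of the class sum.

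IAA2 (AT3G23030), an auxin-induced member of the family, was the gene with the largest difference of all 37 kept genes in hos15, pwr and hda9 hos15, and came after ARF19 in hda9. It had 28.2 FPKM in hda9, 32.8 in hos15, 13.0 FPKM in pwr and 21.9 in hda9 hos15, against 63.7 in Col. The pwr column was the lowest of the 5, at 20.4% of Col, and hos15 was the highest of the mutants. The log2 fold changes were -1.15 for hda9, -0.93 for hos15, -2.21 for pwr and -1.50 for hda9 hos15, so IAA2 fell past 2-fold in hda9, pwr and hda9 hos15. In hos15 it was short of that limit, and past it at -1.08 with quantile scaling of the columns. The pwr column was also the lowest of the 5 for 34.0% of all kept rows, and for 13 of the 37 kept genes.

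IAA1 (AT4G14560), an early auxin-induced gene and the closest relative of IAA2 in coding sequence, followed the same order of pwr lowest and hos15 highest among the mutants. It had 4.99 FPKM in hda9, 6.66 in hos15, 3.54 FPKM in pwr and 3.95 in hda9 hos15, against 9.91 in Col. Its log2 fold changes were -0.87 for hda9, -0.51 for hos15, -1.26 for pwr and -1.14 for hda9 hos15. It was called lower in pwr and hda9 hos15, and with quantile scaling these values were -0.99 and -0.97, short of the limit.

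IAA4 (AT5G43700) had 17.4 FPKM in hda9, 24.2 in hos15, 12.7 FPKM in pwr and 20.2 in hda9 hos15, against 35.6 in Col. On the scale of FPKM + 1 it fell past 2-fold in pwr alone, with a log2 fold change of -1.42. In hda9 it was just short of the limit at -0.996 (-1.04 with quantile scaling), in hos15 it was at -0.54 and in hda9 hos15 at -0.79. In plain FPKM, IAA4 in hda9 stood at 48.7% of Col, which is past 2-fold. IAA3 (AT1G04240, also known as SHY2), its closest relative, had 20.8, 23.0, 19.5 and 17.9 FPKM in hda9, hos15, pwr and hda9 hos15, against 26.8 in Col, and the log2 fold change nearest to the limit was -0.56. IAA3 overlaps a gene on the opposite strand, as do IAA5, IAA9, IAA10, IAA11, IAA13, IAA27, IAA32, ARF1, ARF5 and ARF7. No source used here says whether counting used the strand, so reads of these genes and their partners may be mixed.

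ARF19 (AT1G19220), an activator that acts with ARF7 in lateral root formation, had 1.57 FPKM in hda9, 2.59 in hos15, 1.46 FPKM in pwr and 2.23 in hda9 hos15, against 5.54 in Col. Its log2 fold changes were -1.35 for hda9, -0.86 for hos15, -1.41 for pwr and -1.02 for hda9 hos15, and it was called lower in hda9, pwr and hda9 hos15. All 4 mutant columns lay below 3 FPKM. The hda9 hos15 value was short of the limit with quantile scaling, at -0.77, and with median-ratio scaling, at -0.94. ARF19 overlaps AT1G19210 on the same strand, so reads of the shared bases may be split between them, and AT1G19210 was listed between 0 and 0.172 FPKM in the 5 columns. ARF7 (AT5G20730), its closest relative, with 73.5% of aligned coding bases alike, had 10.4, 12.8, 9.57 and 10.9 FPKM in hda9, hos15, pwr and hda9 hos15, against 13.3 in Col. The largest ARF7 log2 fold change was -0.44, in pwr.

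**Figure D2:**
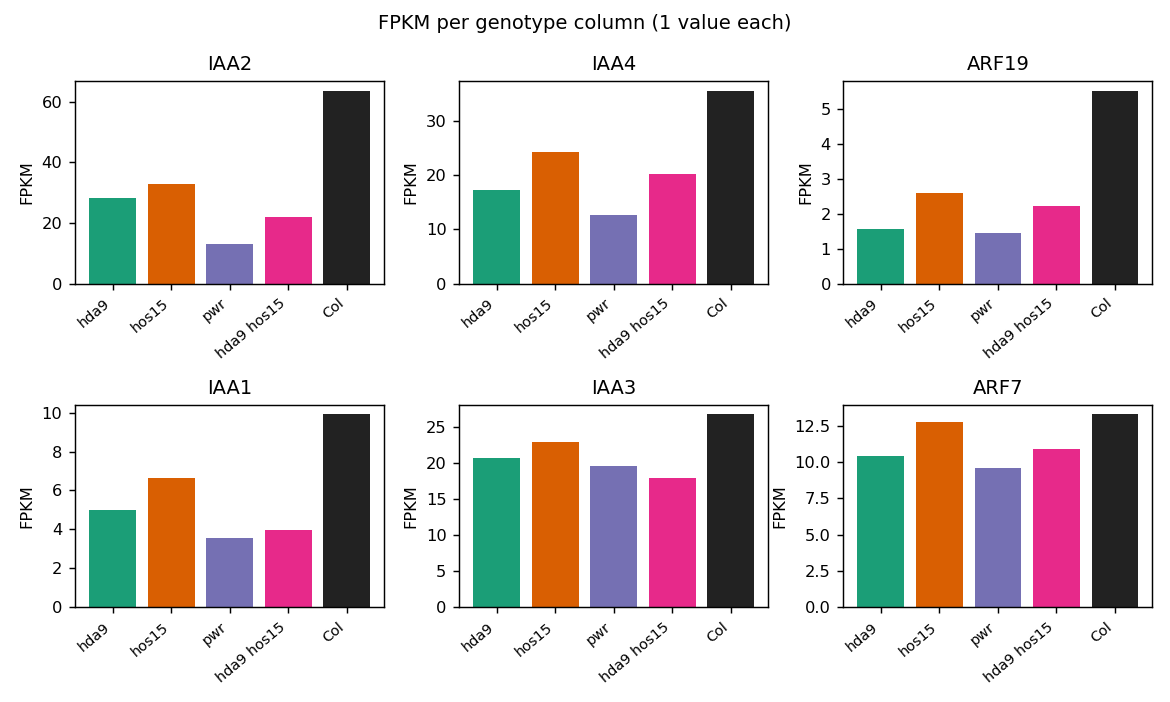
FPKM of the 4 genes called lower in at least 1 mutant, IAA2, IAA4, ARF19 and IAA1, and of the closest relatives IAA3 and ARF7, with 1 bar per genotype column, no error available and axes that start at 0. The Col bar is the highest in each panel and the pwr bar is the lowest, except for IAA3, whose lowest bar is hda9 hos15.

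Counted over the classes, 1 of 22 kept Aux/IAA genes was called lower for hda9, 0 for hos15, 3 for pwr (13.6%) and 2 for hda9 hos15, and 0 were called higher in any mutant. Of the 15 ARF genes, 1 was called lower in hda9, 1 in pwr, 1 in hda9 hos15 and 0 in hos15, and 0 were called higher. Of all kept rows, 4.49% were called lower and 1.99% higher in hda9. The shares were 2.48% lower and 1.23% higher in hos15, 7.55% lower and 1.94% higher in pwr, and 3.91% lower and 1.49% higher in hda9 hos15. The members' counts are too small to set them apart from these shares, and what they describe is which genes moved, IAA1, IAA2, IAA4 and ARF19.

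A looser limit of 1.5-fold added IAA18 (AT1G51950) and IAA26 (AT3G16500), which are each other's closest relatives with 81.6% of aligned coding bases alike. IAA18 had 18.2, 21.03, 14.8 and 18.3 FPKM in hda9, hos15, pwr and hda9 hos15, against 29.6 in Col. IAA26 had 18.3, 21.5, 15.0 and 20.7 FPKM in the same order, against 28.7 in Col. In both genes the mutant columns were below Col, with pwr lowest, and no log2 fold change passed -1. IAA28 (AT5G25890), known for repressing lateral root formation, had 27.4, 28.0, 23.6 and 22.3 FPKM in that order, against 36.1 in Col, and passed 1.5-fold in pwr and hda9 hos15, where the sequence-adjusted values were -0.09 and -0.27. IAA19 (AT3G15540), which acts with ARF7 in tropic growth, was above Col in every mutant, at 5.21, 4.79, 5.79 and 4.49 FPKM against 3.39 in Col, and passed 1.5-fold in pwr with a log2 fold change of 0.63.

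At 1.5-fold the kept Aux/IAA genes that were lower numbered 5 for hda9, 1 for hos15, 6 for pwr and 5 for hda9 hos15, that is 22.7%, 4.55%, 27.3% and 22.7% of 22. Of all kept rows, 12.5%, 8.05%, 17.9% and 13.3% were lower by as much in the same order of mutants, while 7.69%, 5.34%, 9.13% and 7.15% were higher. Of the ARF genes, 2 were lower in hda9 (ARF19 and ARF11), 1 in hos15 (ARF19), 2 in pwr (ARF19 and ARF9) and 1 in hda9 hos15 (ARF19), and 1 was higher, ARF3 in pwr. In all, 26 of the 37 kept genes stayed under 1.5-fold of FPKM + 1 in each of the 4 mutants. The added 1 matters here for weak genes: in plain FPKM, ARF5 stood at 63.9% of Col in hos15 and in pwr. Of the 25 pairs of a gene and a mutant past 1.5-fold, 13 were still past it after sequence adjustment. Of those outside IAA1, IAA2, IAA4 and ARF19, IAA18 in pwr (-0.73) and IAA19 in pwr (1.55) were, while those of IAA26, IAA28, ARF3, ARF9 and ARF11 were not.

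**Figure D3:**
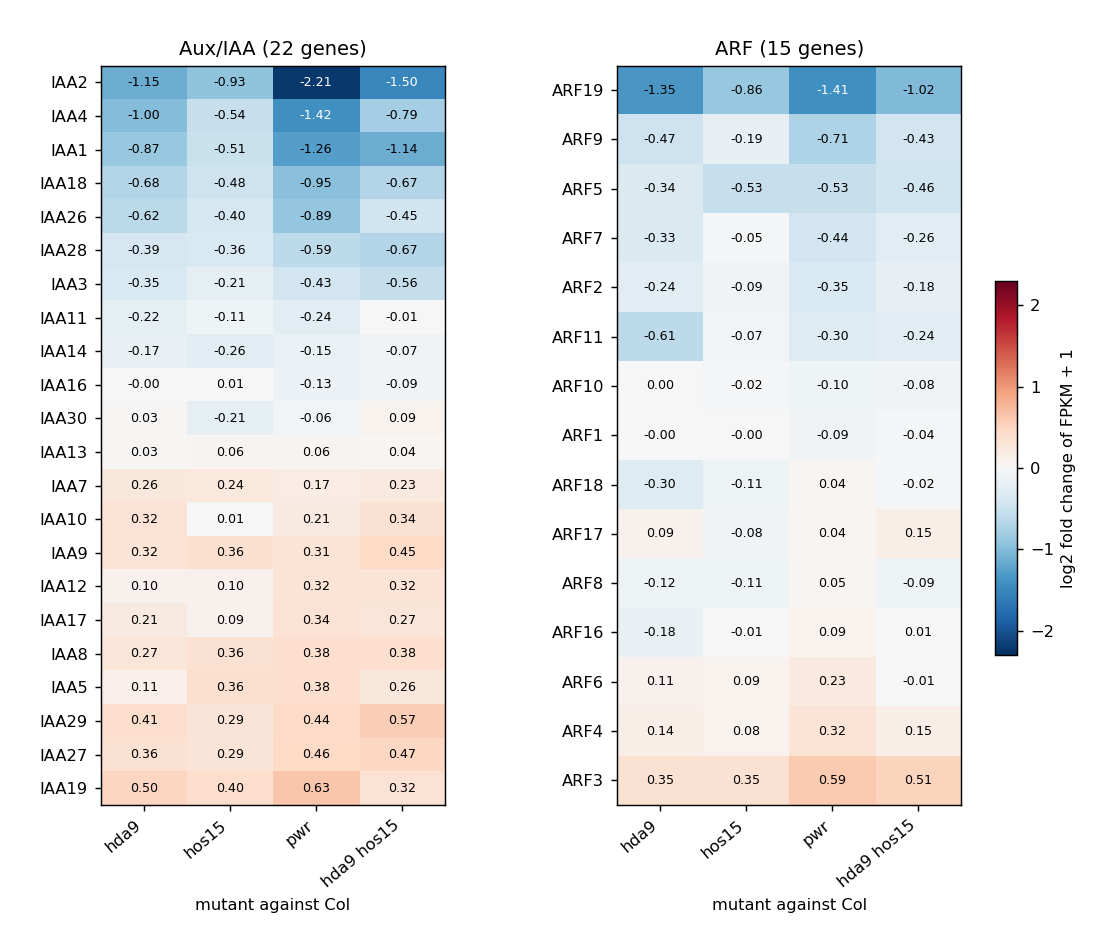
Log2 fold change of FPKM + 1 for the 22 kept Aux/IAA genes (left) and 15 ARF genes (right), each mutant over Col, sorted by the pwr value, with blue for lower and red for higher than Col. The cells below -1 belong to IAA2, IAA4, IAA1 and ARF19, and no red cell reaches 1.

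As classes, neither the Aux/IAA nor the ARF genes moved far from Col. For the kept Aux/IAA genes the hda9 median of the log2 fold changes was 0.03, the hos15 median 0.01, the pwr median 0.0010 and the hda9 hos15 median 0.06. The ARF medians were -0.18, -0.07, -0.09 and -0.08 in the same order. The medians over all kept rows were -0.04, -0.01, -0.09 and -0.07. The Aux/IAA median was thus above the ARF median by 0.21 for hda9, 0.08 for hos15, 0.09 for pwr and 0.15 for hda9 hos15. Among genes with a mean of at least 5 FPKM the Aux/IAA median was the lower one in all 4 mutants, with differences of -0.11 for hda9, -0.07 for hos15, -0.13 for pwr and -0.01 for hda9 hos15. With quantile scaling it was the lower one in hos15 (-0.07) and pwr (-0.06), so the order of the classes depends on these choices. No replicate spread is available against which to set these differences. Of the 37 kept genes, 16 were highest in Col and 13 were lowest in Col, where 41.2% and 32.0% of all kept rows were.

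The remaining kept Aux/IAA genes stayed under 1.5-fold on the scale of FPKM + 1. IAA7 (AT3G23050, also AXR2) ranged from 97.8 to 105 FPKM in the mutants, against 86.9 in Col. IAA17 (AT1G04250, also AXR3) ranged from 44.9 to 53.5 FPKM in the mutants, against 42.0 in Col. IAA27 (AT4G29080) ranged from 21.2 to 24.1 FPKM, against 17.1 in Col. All of these lay above Col in each of the 4 mutants. IAA14 (AT4G14550, also SLR), a repressor of lateral root initiation, lay below Col in each mutant, at 9.12 to 10.5 FPKM against 11.2. IAA13 (AT2G33310) was at 17.8 to 18.3 FPKM in the mutants and 17.5 in Col, and IAA12 (AT1G04550, also BDL), a repressor of embryonic patterning, was at 10.6 to 12.5 FPKM in the mutants and 9.84 in Col. IAA11 (AT4G28640) was at 7.71 to 9.19 FPKM in the mutants and 9.28 in Col, and IAA10 (AT1G04100) at 3.74 to 4.98 FPKM in the mutants and 3.72 in Col.

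The weakest kept Aux/IAA genes lay near 1 FPKM. IAA5 (AT1G15580) was at 0.766 to 1.13 FPKM in the mutants and 0.632 in Col. IAA29 (AT4G32280), induced by shade, was at 0.913 to 1.33 FPKM in the mutants and 0.565 in Col, and IAA30 (AT3G62100) at 0.735 to 1.13 FPKM in the mutants and 1.01 in Col. In plain FPKM, IAA29 stood at 162% to 235% of Col in the mutants, and IAA5 at 121% to 178%. The added 1 compresses such differences at low levels. The 7 genes that were not kept were IAA6 (AT1G52830), IAA15 (AT1G80390), IAA20 (AT2G46990), IAA31 (AT3G17600), IAA32 (AT2G01200), IAA33 (AT5G57420) and IAA34 (AT1G15050), which were all below 1 FPKM in every column and at most 0.909 FPKM (IAA32 in Col). The 6 genes without codons for the degron core were among these weak genes, with at most 1.13 FPKM in any column, while the 23 with it had a median of 17.5 FPKM in Col.

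Among the ARF genes, the activators are ARF5, ARF6, ARF7, ARF8 and ARF19, whose middle region is rich in glutamine, and the others are classed as repressors. Glutamine codons made up 6.98% to 15.3% of the coding sequence in the 5 activators, against 2.24% to 5.98% in the 10 repressors, and these ranges did not overlap. These shares, taken over the whole coding sequence, restate the trait just named for the activators and are no separate result. The activators had a median log2 fold change of -0.33 for hda9, -0.11 for hos15, -0.44 for pwr and -0.26 for hda9 hos15. For the repressors it was -0.09, -0.05, -0.02 and -0.03 in the same order. These are medians of 5 and 10 genes, and the activators include ARF19. ARF5 (AT1G19850, also MONOPTEROS), which patterns the embryo and vasculature, was at 4.45, 3.77, 3.77 and 4.01 FPKM in hda9, hos15, pwr and hda9 hos15, against 5.90 in Col.

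The targets of miR167, ARF6 (AT1G30330) and ARF8 (AT5G37020), which act in flower and hypocotyl growth, showed no difference past 1.5-fold. ARF6 had 22.5, 22.2, 24.5 and 20.6 FPKM in hda9, hos15, pwr and hda9 hos15, against 20.8 in Col. ARF8 had 10.1, 10.1, 11.4 and 10.3 FPKM in that order, against 11.0 in Col. The same held for the targets of miR160, which control the root cap and leaf and flower form. ARF10 (AT2G28350) had 9.67, 9.48, 8.98 and 9.07 FPKM in the mutants, against 9.66 in Col. ARF16 (AT4G30080) had 7.204, 8.22, 8.87 and 8.34 FPKM, against 8.29 in Col, and ARF17 (AT1G77850) had 6.91, 6.03, 6.65 and 7.21 FPKM, against 6.42 in Col.

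The targets of TAS3 small RNAs were ARF2, ARF3 and ARF4. ARF3 (AT2G33860, also ETTIN), which specifies abaxial organ identity, had 19.8, 19.8, 23.6 and 22.2 FPKM in hda9, hos15, pwr and hda9 hos15, against 15.3 in Col. Every mutant column was above Col, with log2 fold changes of 0.35, 0.35, 0.59 and 0.51. ARF4 (AT5G60450), which acts with ARF3, had 12.9, 12.3, 14.7 and 13.0 FPKM in that order, against 11.6 in Col, all above Col. ARF2 (AT5G62000), a repressor of growth and the most abundant ARF transcript, had 54.8, 61.1, 50.9 and 57.1 FPKM, against 65.0 in Col, all below Col. After sequence adjustment the ARF2 values were 0.10 for hda9, 0.11 for hos15, 0.10 for pwr and 0.11 for hda9 hos15, so their sign turned. A positive adjusted value is relative to genes of like sequence and does not place ARF2 above Col. ARF3 in pwr then stood at 0.16.

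The remaining ARF genes are all repressors. ARF1 (AT1G59750) was at 25.8, 25.8, 24.3 and 25.02 FPKM in hda9, hos15, pwr and hda9 hos15, against 25.8 in Col. ARF9 (AT4G23980) had 6.59, 8.24, 5.46 and 6.80 FPKM in that order, against 9.54 in Col, and passed 1.5-fold in pwr, where its log2 fold change was -0.71, and 0.02 after sequence adjustment. ARF11 (AT2G46530) had 4.18, 6.49, 5.41 and 5.65 FPKM, against 6.87 in Col, and passed 1.5-fold in hda9, where its log2 fold change was -0.61, and -0.23 after sequence adjustment. ARF18 (AT3G61830), the closest relative of ARF11, ranged from 3.80 to 5.08 FPKM in the mutants, against 4.92 in Col.

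Pairs of Aux/IAA genes lie next to each other in the genome. In the RefSeq annotation IAA1 and IAA14 lie 10732 bp apart on chromosome 4, IAA2 and IAA7 lie 12510 bp apart on chromosome 3, and IAA3 and IAA17 lie 6388 bp apart on chromosome 1. The genes of each pair face away from each other, with 1 gene between that is not protein-coding. The neighbours IAA14, IAA7 and IAA17 were not called in any mutant. IAA2 fell past 2-fold in hda9, pwr and hda9 hos15, while IAA7 was above Col in every mutant, with log2 fold changes of 0.17 to 0.26. IAA14 was at -0.07 to -0.26 where IAA1 was at -0.51 to -1.26.

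**Figure D4:**
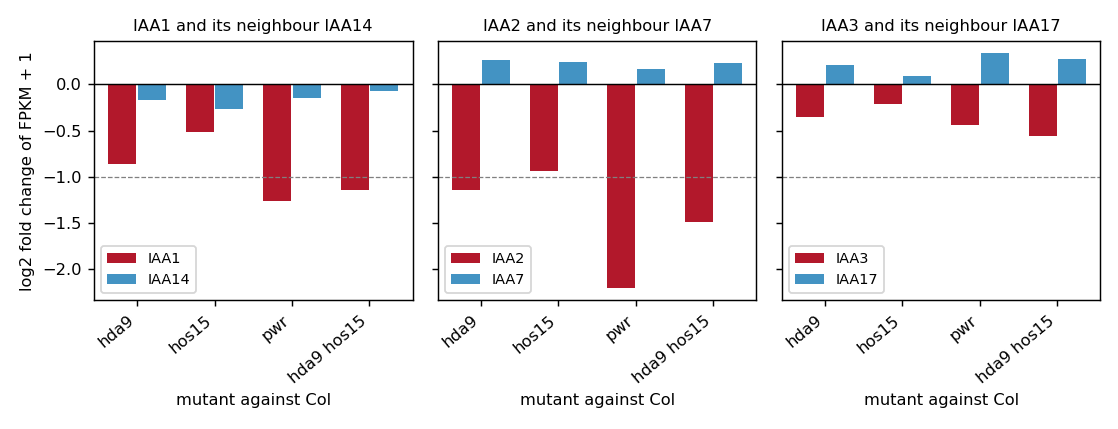
Log2 fold change of FPKM + 1, mutant over Col, for 3 pairs of neighbouring Aux/IAA genes, with bars from 0 and the dashed line at the 2-fold limit. IAA1 and IAA2 reach past the line in some mutants, and the bars of their neighbours IAA14 and IAA7 stay between -0.26 and 0.26.

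The mutants were also compared with each other, without the Col column. Of all kept rows, 0.74% differed by 2-fold between hda9 and hos15, 0.925% between hda9 and pwr and 1.2% between hos15 and pwr. For the double mutant the shares were 1.85% against hda9, 1.29% against hos15 and 1.2% against pwr. Of the 37 members, IAA2 alone passed 2-fold, with log2 fold changes of 1.06 for hda9 over pwr and 1.28 for hos15 over pwr. For hda9 hos15 over pwr it was at 0.72.

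At 1.5-fold on the scale of FPKM + 1, IAA1, IAA2 and IAA4 were higher in hos15 than in pwr, where 7.69% of all kept rows differed by as much. IAA2 and IAA4 were higher in hda9 hos15 than in pwr (5.83% of kept rows), and IAA2 in hda9 than in pwr (3.97%). In hda9 hos15 over hos15, IAA1 was lower, with a log2 fold change of -0.63 (4.62% of kept rows). No member passed 1.5-fold between hda9 hos15 and hda9 (5.71% of kept rows) or between hda9 and hos15 (2.51%). Each of the 37 kept genes was thus within 1.5-fold between hda9 hos15 and hda9 on this scale. Counts this small cannot be set apart from the shares of all kept rows. In plain FPKM, ARF19 stood at 2.59 in hos15, against 1.57 in hda9 and 1.46 in pwr. ARF11 stood at 6.49 in hos15, against 4.18 in hda9. These gaps are wider than 1.5-fold before 1 is added to the values.

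Across all kept protein-coding genes, the log2 fold change went with the share of purines (A and G) in the transcript. Over 18079 genes, Spearman's rho was -0.47 for hda9, -0.42 for hos15, -0.53 for pwr and -0.46 for hda9 hos15, a description across genes that share the same columns. The median share of purines was 50.7% in the Aux/IAA genes, with a range of 47.4% to 56.8%, 50.1% in the ARF genes and 50.6% in all kept genes. IAA1 was at 55.6%, IAA4 at 53.5%, IAA2 at 52.6% and ARF19 at 50.3%. IAA1, IAA2 and IAA4 were thus above the median of all genes, and ARF19 was near it.

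After sequence adjustment, which also used the highest purine share in 100 bases, IAA2 stood at -1.70 in pwr and -1.11 in hda9 hos15, still past 2-fold, and at -0.83 in hda9. IAA1 stood at -0.58 in pwr and -0.70 in hda9 hos15, and IAA4 at -0.94 in pwr, so neither was called. ARF19 stood at -1.13 in hda9 and -1.12 in pwr and at -0.81 in hda9 hos15. IAA19, which has the highest purine share of the 37 genes at 56.8%, stood at 1.16 in hda9 and 1.55 in pwr, against 0.50 and 0.63 before. What lies behind this trend was not tested.

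**Figure D5:**
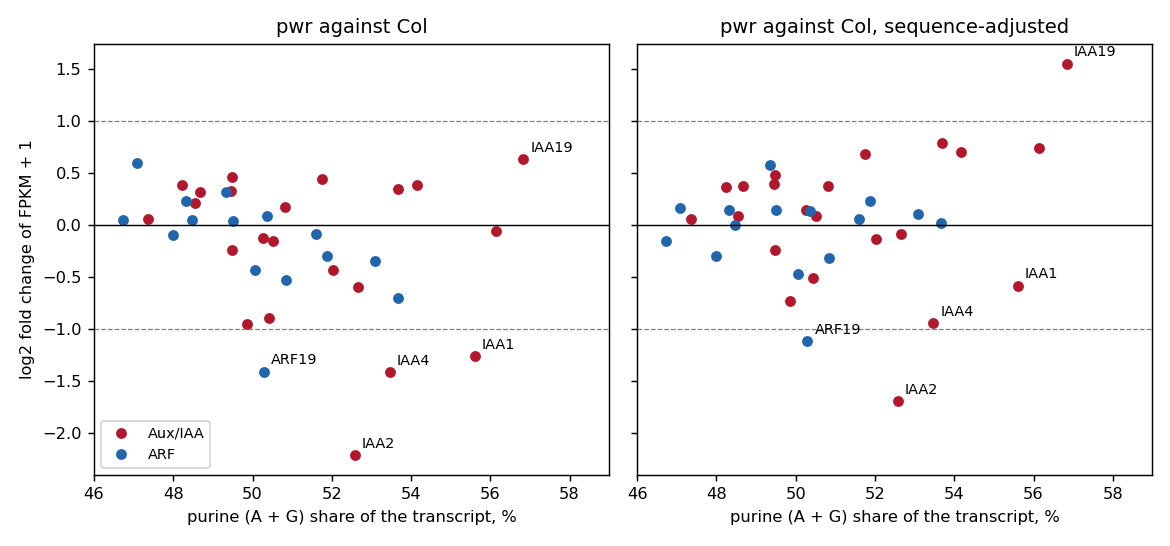
Log2 fold change of FPKM + 1 in pwr over Col for the kept Aux/IAA (red) and ARF (blue) genes against the purine share of the transcript in percent, before (left) and after (right) adjustment for sequence, with dashed lines at 2-fold. IAA2 and ARF19 stay below the lower line after adjustment, IAA1 and IAA4 move above it, and IAA19 moves past the upper line.

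Of the rest of the pathway, the 6 co-receptor genes had no called member, and their median log2 fold changes were 0.31 for hda9, 0.33 for hos15, 0.44 for pwr and 0.32 for hda9 hos15. AFB5 had 46.9, 48.5, 56.6 and 49.2 FPKM in hda9, hos15, pwr and hda9 hos15, against 29.7 in Col. TIR1 had 49.2, 49.2, 59.7 and 58.1 FPKM in that order, against 35.6 in Col, and AFB2 had 28.7, 30.5, 35.7 and 31.1 FPKM, against 22.4 in Col. AFB5, TIR1 and AFB2 were thus above Col in every mutant. The log2 fold changes of the others were smaller, at -0.07 to 0.06 for AFB1, 0.03 to 0.19 for AFB3 and 0.02 to 0.28 for AFB4. After sequence adjustment the co-receptor medians were 0.20 for hda9, 0.19 for hos15, 0.26 for pwr and 0.23 for hda9 hos15. Among 6 genes of the ubiquitin ligase that these F-box proteins belong to and of its regulation, ASK1, the adaptor subunit, was called higher in hda9, pwr and hda9 hos15. It had 613, 524, 608 and 598 FPKM in hda9, hos15, pwr and hda9 hos15, against 284 in Col. These 3 calls end with sequence adjustment, where ASK1 stood at 0.90 in hda9, 0.90 in pwr and 0.91 in hda9 hos15.

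The 5 TOPLESS-type corepressor genes had no called member, and their median was 0.10 for hda9, -0.01 for hos15, 0.14 for pwr and 0.06 for hda9 hos15. TPL had 49.5, 48.6, 50.4 and 48.5 FPKM in the same mutant order, against 39.8 in Col. Of 8 auxin-conjugating GH3 genes, 5 were kept and 0 were called. GH3.5 had 15.0, 14.8, 13.2 and 13.6 FPKM in the mutants, against 8.52 in Col, and GH3.6 had 44.4, 44.6, 49.3 and 49.6 FPKM, against 31.0 in Col, so both were above Col in every mutant. GH3.2 had 3.82, 3.80, 3.09 and 3.53 FPKM in the mutants, against 4.39 in Col. GH3.17 had 10.4, 13.2, 10.3 and 13.8 FPKM, against 13.9 in Col. GH3.2 and GH3.17 were thus below Col in every mutant. The median of the 5 kept GH3 genes was 0.16 for hda9, 0.06 for hos15, -0.04 for pwr and 0.03 for hda9 hos15. GH3.4 was listed at 0 in all columns.

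Of 5 LBD genes, which act in lateral root formation below ARF7 and ARF19, only LBD16 was kept, at 1.49, 0.851, 0.741 and 0.854 FPKM in hda9, hos15, pwr and hda9 hos15, against 1.54 in Col. Of 12 auxin carrier genes 11 were kept and 0 were called, with medians of 0.12, 0.12, 0.36 and 0.30. PIN5, a carrier of internal membranes, had 4.25, 3.46, 3.93 and 3.79 FPKM in the mutants, against 2.20 in Col. Of 3 other early auxin genes 2 were kept and 0 were called, among them HAT2, a homeodomain gene, at 11.9, 12.8, 10.5 and 10.4 FPKM in the mutants and 15.0 in Col.

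Precursors of the small RNAs were mostly weak or listed at 0, and 2 of 12 rows were kept, TAS3 and MIR167A. TAS3 had 28.2, 30.3, 37.7 and 33.5 FPKM in hda9, hos15, pwr and hda9 hos15, against 23.0 in Col. MIR167A had 1.15, 1.33, 1.61 and 3.02 FPKM in that order, against 1.47 in Col. The other rows were not kept, and single values stood out both ways among them: MIR167B was listed at 21.7 FPKM in Col alone and MIR390B at 8.72 FPKM in hda9 alone, each at 0 in the other columns. The 4 kept genes of TAS3 small RNA biogenesis had no called member, with medians of -0.30, -0.21, -0.36 and -0.18, and SGS3 had 4.69, 5.55, 4.003 and 4.38 FPKM in the mutants, against 6.99 in Col. After sequence adjustment these medians were 0.02, -0.06, 0.14 and 0.03, so the sign turned in hda9, pwr and hda9 hos15, and SGS3 stood at 0.17 in hda9, 0.18 in hos15 and 0.19 in pwr.

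The targeted genes were checked in every column. HDA9 had 1.70 FPKM in hda9, 10.7 in hos15, 10.9 FPKM in pwr and 1.76 in hda9 hos15, against 7.79 in Col. PWR had 9.76, 12.1, 2.18 and 10.2 FPKM in the same order, against 8.38 in Col. HOS15 had 4.37, 2.16, 3.169 and 1.89 FPKM, against 16.2 in Col, so it was low in hos15 and the double mutant and also below Col in hda9 and pwr. Its log2 fold changes were -1.68 in hda9 and -2.04 in pwr, and -0.36 in each after sequence adjustment, while hos15 and hda9 hos15 stayed past 2-fold at -1.35 and -1.46. The seedling markers were present, with RBCS1A of green tissue between 18640 and 28352 FPKM and BGLU23 of the root between 927 and 1441 FPKM. The flower and seed genes AP1, AG, AP3, CRA1 and CRU3 were at most 0.182 FPKM. The 3 green tissue markers summed to 43929, 39235, 51656.5 and 45240.5 FPKM in hda9, hos15, pwr and hda9 hos15, against 30408 in Col. The green sum followed RBCS1A and LHCB1.3, which were above Col in every mutant. LHCB1.1 had 1535, 1237, 1745 and 1267 FPKM in the same order, against 1253 in Col, so it was near Col in hos15 and hda9 hos15. The 3 root markers summed to 1002, 1098, 940.1 and 991 FPKM, against 1454 in Col. The root sum followed BGLU23, which was below Col in every mutant, while PIN2 ranged from 8.50 to 10.6 FPKM in the mutants, against 9.88 in Col, and COBL9 was above Col in every mutant. The part of tissue makeup in the differences of the Aux/IAA and ARF genes was not tested.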

How the data were processed

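Per the submitters' processing notes, TopHat2, Cufflinks and Cuffdiff were used with the TAIR10 build; versions and settings, and whether counting used the strand, are named in no source used here. The authors deposited FPKM with 1 value per gene and genotype; the wild-type column names no library and was taken as Col. No source used here says how the 2 libraries of a genotype were joined. All 271 organelle rows are 0, 239 rows join several loci, and no member is in one.

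The members and lists were chosen with earlier results of these data known. Differences are of log2(FPKM + 1). All 37 kept members are named with their levels, and called members with all 5. Since there is 1 value per genotype, no test was run. Sequence-adjusted values are residuals on cubic splines with 5 knots, over the 18079 protein-coding genes that were kept and reach 300 nt (scikit-learn 1.9.0, pandas 2.3.3, Python 3.11.15). All 44 members matched the RefSeq annotation of TAIR10.1; 11 overlap a gene on the opposite strand and 2 (ARF19 and IAA34) one on the same strand. Alternatives were a pseudocount of 0.25, no filter, mean FPKM of at least 5, median-ratio and quantile scaling, sequence adjustment and a 1.5-fold limit. The procedure was tested on simulated data.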

Additional observations from a re-analysis of the deposited data

How the results depend on the processing

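No paired analysis was possible because the table holds 1 value per genotype, and for the same reason no library could be left out. No called gene changed direction, but the class medians lie near 0 and their signs did: of 12 class medians and differences of medians, 8 turned with a mean of at least 5 FPKM, 6 with quantile scaling, 3 with no filter, 2 with sequence adjustment, and 1 each with median-ratio scaling and a pseudocount of 0.25. Of Aux/IAA genes lower in hda9, 1 in the values as reported, 2 were called with a pseudocount of 0.25 or quantile scaling, 0 after sequence adjustment and 5 at 1.5-fold, and 1 was called higher after sequence adjustment. In hos15 (0 as reported) 1 was lower with quantile scaling and 1 at 1.5-fold. In pwr (3 as reported) 1 was lower after sequence adjustment and 6 at 1.5-fold, and 1 (IAA19) was higher under either. In hda9 hos15 (2 as reported) 1 was lower with quantile scaling, 1 after sequence adjustment and 5 at 1.5-fold. ARF19, the called ARF, has a mean under 5 FPKM, so 0 ARF genes were lower in hda9, pwr and hda9 hos15 with that minimum. In hda9 hos15, 0 were lower also with median-ratio scaling (ARF19 at -0.94), quantile scaling (-0.77) and sequence adjustment (-0.81). In hos15, 1 ARF gene was lower with a pseudocount of 0.25 (-1.03) and 1 at 1.5-fold. At 1.5-fold, 2 ARF genes were lower in hda9 and 2 in pwr, and 1 was higher in pwr. The ARF median in pwr, -0.09 as reported, was 0.12 with quantile scaling, 0.04 with median-ratio scaling and 0.06 with sequence adjustment. With a mean of at least 5 FPKM the Aux/IAA median minus the ARF median was -0.11 in hda9 and -0.13 in pwr, against 0.21 and 0.09 as reported. Between hda9 and pwr, 0 members were called with quantile scaling and after sequence adjustment, and between hos15 and pwr, 0 after sequence adjustment and 3 at 1.5-fold. At 1.5-fold, 1 member was called for hda9 hos15 over hos15 and 2 for hda9 hos15 over pwr.

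Quantile scaling moved the median of all kept rows in pwr by 0.14 and median-ratio scaling by 0.12. IAA1 was at -0.99 in pwr and -0.97 in hda9 hos15 with quantile scaling, just short of 2-fold. In pwr the row AT2G01021 held 13.9% of the FPKM sum, against 4.13% in Col. The cause of each change was not tested. The depth behind the values is unknown, so levels near 1 FPKM carry an unknown counting error.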
